A study of Rattus norvegicus with 30 samples.

Results

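The genes described here make up the machinery that presents peptides on major histocompatibility complex (MHC) class II molecules. They are the listed genes Cd74, RT1-Da, RT1-Db1, RT1-Ba, RT1-Bb, RT1-DMa, RT1-DMb and Ciita, looked up by gene symbol in the count table of a rat tendon study. Of the 8 genes, 6 were found among the 13124 genes of the table, and all 6 passed a filter that required a group mean of at least 3 CPM (counts scaled to a library of 1e+06), which 12558 genes passed. RT1-DMa and RT1-DMb, the chains of the peptide editor DM, were not analysed here. Per the deposited tables, Cd74 (ENSRNOG00000018735) lies on chromosome 18, Ciita (ENSRNOG00000002659) on chromosome 10, and RT1-Da (ENSRNOG00000032844), RT1-Db1 (ENSRNOG00000033215), RT1-Ba (ENSRNOG00000000451) and RT1-Bb (ENSRNOG00000032708) on chromosome 20.

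RNA was measured in 30 plantaris tendons of 3-month-old male Sprague Dawley rats, an outbred stock. In the 27 rats of the repaired groups the tendon was cut and repaired at once. These rats then received GSK2894631A by mouth 2 times a day, a compound that inhibits the enzyme making prostaglandin D2 in hematopoietic cells. The doses were 0 mg/kg, which was vehicle alone, 2 mg/kg and 6 mg/kg, and tendons were taken 7 days (7D) or 21 days (21D) after surgery. The groups were 7D 0 mg/kg with 5 tendons, 7D 2 mg/kg with 4, 7D 6 mg/kg with 3, and 21D 0, 2 and 6 mg/kg with 5 each. The 3 control tendons came from rats that had neither surgery nor compound, so control and repaired tendons differ in the operation and in the vehicle together. Whole tendon was used, so fewer cells of a type and less RNA per cell cannot be told apart in any value below.

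MHC class II molecules are pairs of an alpha and a beta chain that carry peptides from the endosome to the cell surface, where CD4 T cells read them. In the rat they are encoded in the RT1 complex, with RT1-Da and RT1-Db1 forming the D molecule (the counterpart of HLA-DR) and RT1-Ba and RT1-Bb forming the B molecule (the counterpart of HLA-DQ). Cd74, the invariant chain, fills the peptide groove, and proteases of the endosome trim it to a last fragment. Ciita, the class II transactivator, does not bind DNA itself. It docks on a complex of RFX, CREB and NF-Y proteins that sits on the X and Y boxes of class II promoters. Dendritic cells, B cells and macrophages carry the genes at rest or after activation, and interferon gamma can switch them on in other cells.

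The X and Y boxes are shown first because they are the sequence that these genes share by their regulation. Promoter sequence, 250 bases before to 50 bases after the annotated start, was given by RefSeq on the rat assembly GRCr8 for 5 of the 6 genes and for RT1-Db2, a near copy of RT1-Db1. The windows below run 5′ to 3′ on the strand of the gene. Capitals mark ATTGG or its reverse complement CCAAT (the Y box core), AGNAACNG (X1 letters) and TGACGTCA (X2 letters), which were searched on both strands.
RT1-Da: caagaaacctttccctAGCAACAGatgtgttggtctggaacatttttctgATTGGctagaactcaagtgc
RT1-Db1: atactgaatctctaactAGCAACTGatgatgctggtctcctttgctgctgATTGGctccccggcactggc
RT1-Db2: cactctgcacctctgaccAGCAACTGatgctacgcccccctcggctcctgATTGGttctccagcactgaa
RT1-Ba: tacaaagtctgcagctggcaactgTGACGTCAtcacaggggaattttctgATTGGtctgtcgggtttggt
RT1-Bb: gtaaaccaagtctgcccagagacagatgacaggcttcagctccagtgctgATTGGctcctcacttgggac
Cd74: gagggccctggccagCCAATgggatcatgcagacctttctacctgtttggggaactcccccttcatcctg

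The windows lie at chr20:4515316-4515385 on the plus strand for RT1-Da, chr20:4560223-4560292 on the minus strand for RT1-Db1, and chr20:4541693-4541762 on the minus strand for RT1-Db2. RT1-Ba is at chr20:4576964-4577033 on the plus strand, RT1-Bb at chr20:4604160-4604229 on the minus strand, and Cd74 at chr18:56527002-56527071 on the plus strand. All 6 promoters held the Y box core, against 37.5% of 33469 rat promoters of the same length. In the chain genes it began 49 bases before the start in RT1-Da, 80 in RT1-Db1, 43 in RT1-Ba and 61 in RT1-Bb, on the strand of the gene. RT1-Db1 and RT1-Bb each held a further match on the other strand. In Cd74 the match lay on the other strand, 189 bases before the start.

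The X1 letters were present in RT1-Da, RT1-Db1, RT1-Db2 and RT1-Bb (17.4% of all promoters), and in the first 3 of these they stood a short way before the Y box, as printed above. In RT1-Bb the X1 match was farther out, 186 bases before the start. RT1-Ba alone held TGACGTCA (1.83% of all promoters), 69 bases before the start. None of the 6 held TGNGTCA (14.5%), a shorter pattern that TGACGTCA itself does not match, and looser forms of TGACGTCA were not searched. These are matches of letters only. The map of motif positions gives every match.

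**Figure D1:**
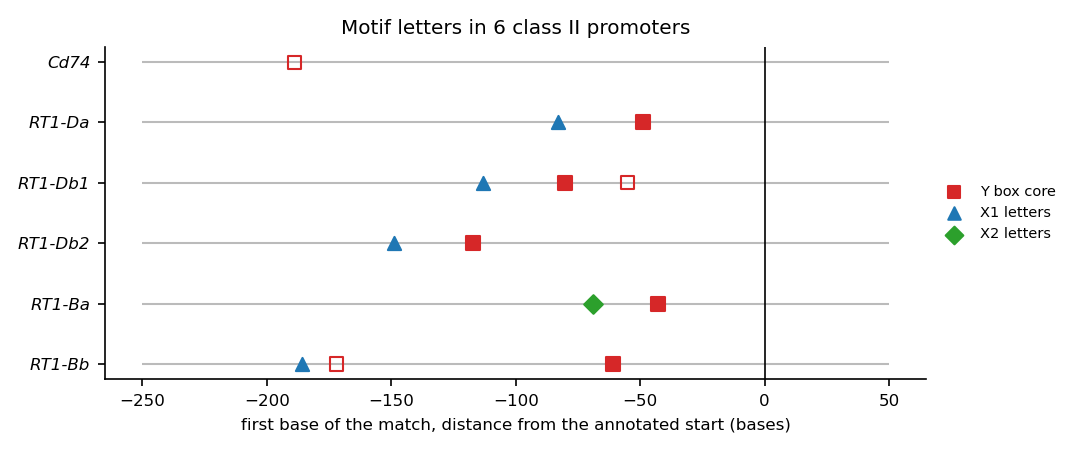
Positions of motif letters in 6 rat promoters, with the distance of the first base of each match from the annotated transcription start on the x axis (bases) and 1 line per gene. Filled symbols are matches on the strand of the gene and open symbols on the other strand. All 6 lines carry a Y box core, and RT1-Ba alone carries the X2 letters.

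Total counts ran from 12405741 to 49909374 per tendon, and 3 counts, the smallest number read here as detected, were 0.0601 to 0.242 CPM. The tendon fibroblast markers (7 kept) and skeletal muscle markers (25 kept) were both detected. The muscle list took 19.9% to 29.4% of all counts in the control tendons, 0.0487% to 1.40% at 7D and 0.117% to 10.3% at 21D, and the scaling factors of the control tendons were 0.599 to 0.789 and at least 0.950 in the repaired tendons. With the genes of the list and their counts left out, no class II call changed. That setting removes the listed genes only, so the part of muscle tissue in the differences from control was not tested.

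The first comparison asks whether repair changed class II transcripts. All 6 genes were higher in every one of the 6 repaired groups than in control tendons, which is 36 of 36 differences at an adjusted p under 0.05. Ciita had the largest change at 7D 0 mg/kg, a log2 fold change of 2.61 (SE 0.364, 6.12-fold), and RT1-Da the smallest, 1.75 (SE 0.341, 3.35-fold). The median over the 6 genes was 1.97, and the median over all genes was 0.05. Of all genes tested, 35.8% were called higher in that comparison, so a call by itself is common in these tendons. The other groups had backgrounds of 35.8% (7D 2 mg/kg), 34.1% (7D 6 mg/kg), 32.2% (21D 0 mg/kg), 33.8% (21D 2 mg/kg) and 30.8% (21D 6 mg/kg).

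Ciita, the master switch of the pathway, measured 1.80, 4.01 and 6.49 CPM in the 3 control tendons. The 7D 0 mg/kg tendons measured 18.2, 20.2, 22.5, 30.6 and 36.9 CPM. No tendon of any repaired group fell to the level of the highest control tendon, and the lowest of the 27 was 9.01 CPM at 21D 6 mg/kg. At 21D 0 mg/kg the values were 11.1, 13.3, 23.1, 23.4 and 25.1 CPM, a log2 fold change of 2.19 against control (SE 0.357, adjusted p = 1.02e-05). The control counts behind these values were 22 to 162, which makes Ciita the least deeply counted of the 6.

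Cd74 measured 195, 306 and 438 CPM in control tendons. At 7D 0 mg/kg it measured 725, 1012, 1026, 1418 and 1661 CPM, and at 21D 0 mg/kg 543, 726, 1133, 1149 and 1243 CPM. All repaired tendons were above all control tendons. The log2 fold change against control was 1.90 (SE 0.333, adjusted p = 1.86e-05) at 7D 0 mg/kg and 1.61 (SE 0.328, adjusted p = 0.00015) at 21D 0 mg/kg.

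Of the D molecule, the alpha chain gene RT1-Da measured 68.3, 127 and 172 CPM in control tendons and 225, 334, 393, 510.4 and 590.3 CPM at 7D 0 mg/kg. At 21D 0 mg/kg it measured 163, 209, 370.3, 372 and 382 CPM, so that the lowest repaired tendon lay inside the control range. The log2 fold change there was 1.29 (SE 0.334, adjusted p = 0.0016). The beta chain gene RT1-Db1 measured 43.5, 54.2 and 110.5 CPM in control tendons and 198, 269, 286, 301 and 356 CPM at 7D 0 mg/kg, a log2 fold change of 2.02 (SE 0.397). At 21D 0 mg/kg its values were 98.9, 185, 262, 262 and 297 CPM, and again 1 tendon overlapped the controls.

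Of the B molecule, the alpha chain gene RT1-Ba measured 38.9, 70.9 and 113 CPM in control tendons and 179.6, 236, 247, 356 and 391 CPM at 7D 0 mg/kg, a log2 fold change of 1.92 (SE 0.337). At 21D 0 mg/kg it measured 115, 155, 221, 221 and 258 CPM, and every tendon was still above the highest control. The beta chain gene RT1-Bb measured 25.1, 53.2 and 106 CPM in control tendons and 215, 257, 286, 332 and 359.5 CPM at 7D 0 mg/kg, a log2 fold change of 2.23 (SE 0.439). Without control tendon 3, the highest of the 3, the log2 fold change was 2.91. In the other 5 repaired groups the log2 fold change of RT1-Bb likewise moved up, to between 2.43 and 2.92. Taken out of log2, each of these fold changes moved by over 1.5 times. At 21D 0 mg/kg it measured 88.7, 183, 212, 234 and 317 CPM. Over the 36 differences, repaired and control groups did not overlap in 32. The overlaps were RT1-Da, RT1-Db1 and RT1-Bb at 21D 0 mg/kg and RT1-Bb at 21D 6 mg/kg. Of all genes, 31.2%, 30.1% and 34.6% were higher without overlap at 7D with 0, 2 and 6 mg/kg, and 25%, 29.5% and 25.9% at 21D.

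**Figure D2:**
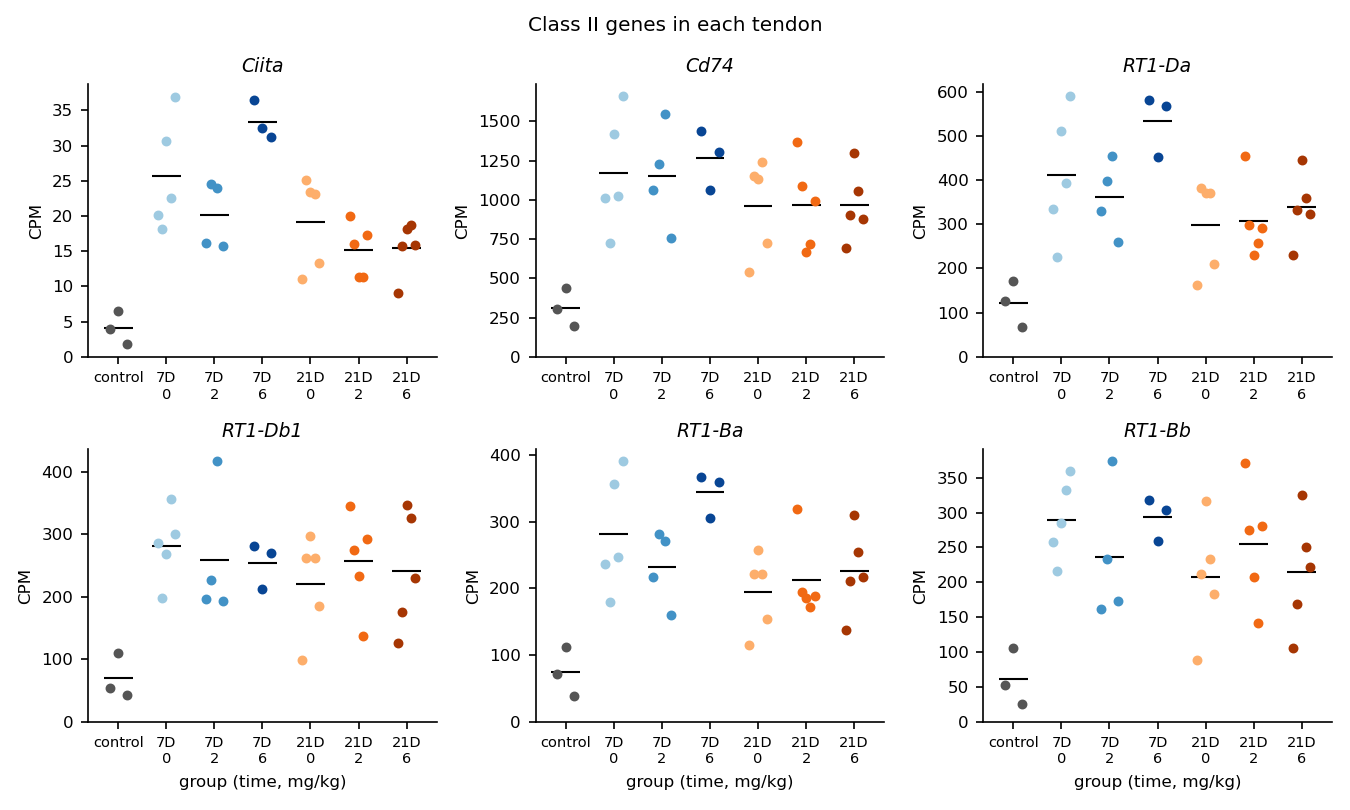
CPM of 6 class II genes in 30 tendons, with the 7 groups on the x axis (time and dose in mg/kg), 1 point per tendon and a bar at the group mean. Each panel has its own scale, which starts at 0. Ciita lies between 1.80 and 6.49 CPM in control tendons and above 9 CPM in every repaired tendon.

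The treated groups gave differences of the same direction. At 7D 2 mg/kg the 6 log2 fold changes ran from 1.56 (RT1-Da) to 2.26 (Ciita), and at 7D 6 mg/kg from 1.87 (RT1-Db1) to 2.99 (Ciita). At 21D 2 mg/kg the largest was RT1-Bb, 2.05 (SE 0.435), with Ciita at 1.86 (SE 0.352). At 21D 6 mg/kg they ran from 1.47 (RT1-Da) to 1.89 (Ciita). The standard errors were 0.328 to 0.466 over all 36 differences. They belong to each gene's own difference from control and do not measure the gaps between genes, whose values move together across tendons. These comparisons share the same 3 control tendons.

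**Figure D3:**
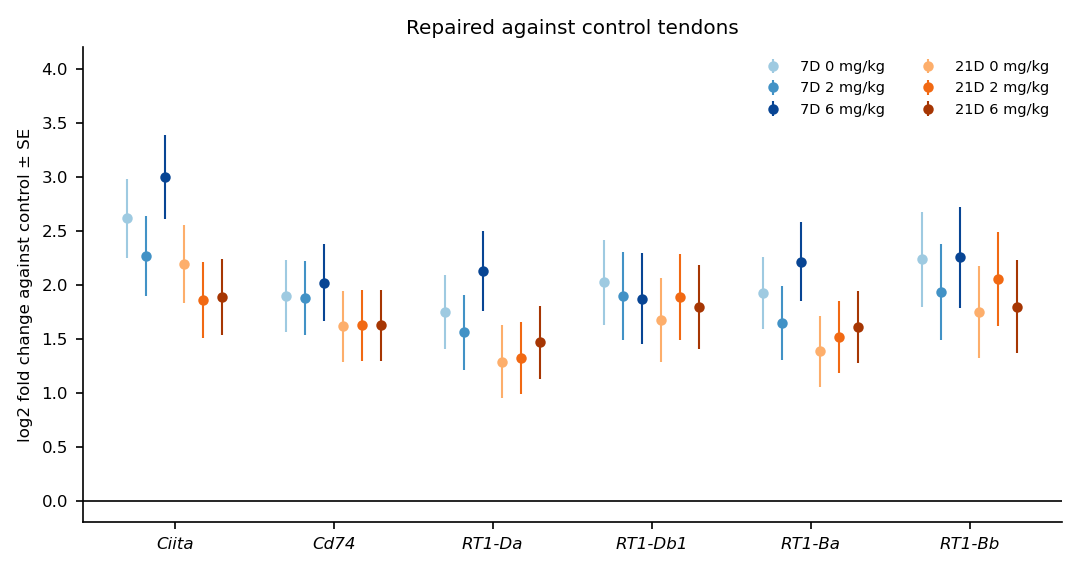
Log2 fold change of each class II gene against the 3 control tendons in the 6 repaired groups, with bars of 1 standard error on each side. All 36 points lie above 0, between 1.29 and 2.99, and Ciita at 7D 6 mg/kg is the highest.

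The second comparison asks whether the levels moved between 7D and 21D. At 0 mg/kg none of the 6 genes passed the test, and the background was 5.35% of all genes. All 6 estimates were below 0, from -0.54 for RT1-Ba (SE 0.270, adjusted p = 0.22) to -0.29 for Cd74 (SE 0.266, adjusted p = 0.56). At 2 mg/kg none passed either (13.1% of all genes did), with estimates from -0.41 for Ciita to 0.12 for RT1-Bb.

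At 6 mg/kg Ciita alone of the 6 passed, as did 13.1% of all genes. It measured 31.2, 32.5 and 36.5 CPM in the 3 tendons at 7D and 9.01, 15.8, 15.8, 18.1 and 18.7 CPM in the 5 at 21D, with no overlap. The log2 fold change was -1.11 (SE 0.310, adjusted p = 0.019), which is 2.15-fold lower at 21D. Of all genes, 4.55% were called lower in this comparison and 10.6% were lower without overlap. The call was lost without tendon 1 or tendon 4 of 7D 6 mg/kg (adjusted p = 0.078 and 0.053) and without tendon 1 of 21D 6 mg/kg (adjusted p = 0.053). RT1-Da was also lower in every 21D tendon, with 229, 324, 333, 360.5 and 447 CPM against 452 to 580.4 CPM in the 3 tendons at 7D, but its adjusted p was 0.18 (log2 fold change -0.65, SE 0.313). The change of Ciita over time was not shown to differ between doses, since the dose by time interaction had an adjusted p of 0.84.

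Markers of B cells, which carry class II at rest, were also lower, and so were some markers of other immune cells. All 8 B cell markers were called lower at 21D than at 7D in the 6 mg/kg groups, with a median log2 fold change of -2.88. Their summed level was 37.4, 61.3 and 88.9 CPM in the tendons of 7D 6 mg/kg, higher than in any other repaired tendon except 1 at 7D 0 mg/kg (44.4 CPM), and 7.81 to 21.2 CPM at 21D 6 mg/kg. The B cell receptor component Cd79b measured 5.83 to 17.9 CPM and 0.389 to 2.77 CPM in these groups. Of the dendritic cell markers, 4 of 9 were called lower, and of the macrophage markers, 3 of 12. Neutrophils carry little class II, and 3 of their 5 markers were called lower, as were 3 of 6 genes of the CD4 T cell list. None of the 3 pan-leukocyte genes was called. Of all genes, 4.55% were called lower. The part of these cells in the difference of Ciita was not tested.

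The third comparison asks whether the inhibitor changed the genes. None of the 6 passed the test across the 3 doses at 7D, where 2.05% of all genes did, or at 21D, where edgeR called 0 genes (10.9% had an unadjusted p under 0.05, and DESeq2 called 138, none of them among the 6). The smallest adjusted p at 7D was 0.53, for Ciita. At 7D its mean was 25.7 ± 7.87 CPM (SD, n = 5) at 0 mg/kg, 20.1 ± 4.83 CPM (SD, n = 4) at 2 mg/kg and 33.4 ± 2.74 CPM (SD, n = 3) at 6 mg/kg. The log2 difference was -0.35 (SE 0.292) for 2 against 0 mg/kg, 0.38 (SE 0.313) for 6 against 0 mg/kg and 0.73 (SE 0.329, adjusted p = 0.59) for 6 against 2 mg/kg. The tendons of 7D 6 mg/kg were all above those of 7D 2 mg/kg, which measured 15.7, 16.2, 24.0 and 24.6 CPM, and 5.22% of all genes were higher without overlap in this comparison.

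Cd74 had means of 1168 ± 369 CPM (SD, n = 5), 1149 ± 330.3 CPM (SD, n = 4) and 1267 ± 191 CPM (SD, n = 3) at 7D for 0, 2 and 6 mg/kg. At 21D the means were 959 ± 306 CPM, 967 ± 285 CPM and 967 ± 226 CPM (SD, n = 5 each). The spread between tendons of a group limits what these groups can show. The dose by time interaction passed for 0.39% of all genes and for none of the 6.

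Ratios of counts within a tendon do not depend on how libraries are scaled, so they show whether the genes kept their proportions. They are not corrected for gene length and serve only to compare tendons. Cd74/RT1-Da varied least within groups among the 6 ratios tested, at 2.42 to 2.85 in control tendons, 2.61 to 3.22 at 7D 0 mg/kg and 3.01 to 3.47 at 21D 0 mg/kg. At 7D 6 mg/kg it was 2.30 to 2.47, below every other repaired tendon and reaching below the controls. RT1-Ba/RT1-Da, the alpha chains of both molecules, stayed between 0.560 and 0.808 in all 30 tendons. Cd74/RT1-Da did not overlap between 21D 0 mg/kg and control (exact permutation test, two-sided, p = 0.036, adjusted p = 0.18).

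Ciita/Cd74 was 0.00921, 0.0131 and 0.0148 in control tendons and 0.0199 to 0.025 at 7D 0 mg/kg, with no overlap. Its mean log2 ratio was higher than in control by 0.84 at 7D 0 mg/kg and by 0.69 at 21D 0 mg/kg (exact permutation test, two-sided, p = 0.036 in both, adjusted p = 0.18 over 18 tests of 6 ratios). With 3 against 5 tendons 0.036 is the smallest p this test can give, and none of the 18 passed after adjustment. The other groups were not tested. The ratio was highest at 7D 6 mg/kg, 0.0239 to 0.0306, and ran from 0.0152 to 0.0208 at 7D 2 mg/kg. It overlapped the controls at 21D 2 mg/kg (0.0146 to 0.0174) and at 21D 6 mg/kg (0.013 to 0.018).

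The beta chain genes followed the alpha chain genes less closely than the alpha chain genes followed each other. With each group centred on its mean, log2 CPM over the 30 tendons gave r = 0.79 for RT1-Da with RT1-Db1 and 0.88 for RT1-Ba with RT1-Bb. Between the alpha chain genes r was 0.96, and between the beta chain genes 0.95. All of these r include the 3 control tendons, which spread widely (RT1-Bb from 25.1 to 106 CPM). RT1-Db1/RT1-Da ran from 0.428 to 1.02 over the 30 tendons and RT1-Bb/RT1-Ba from 0.646 to 1.49, a range of 2.37-fold and 2.31-fold against 1.44-fold for RT1-Ba/RT1-Da. The spread lay between tendons of one group: within groups the SD of the log2 ratio was 0.328 for RT1-Db1/RT1-Da and 0.287 for RT1-Bb/RT1-Ba. It was 0.183 for RT1-Bb/RT1-Db1, 0.123 for RT1-Ba/RT1-Da and 0.110 for Cd74/RT1-Da. At 7D 0 mg/kg RT1-Db1/RT1-Da was 0.509 in the lowest tendon and 0.906 in the highest, while in the 3 tendons of 7D 6 mg/kg it was 0.468 to 0.483.

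The log2 values of both beta to alpha ratios were set against each other as a description, since the pair was chosen after the ratios had been seen. Over the 12 tendons at 7D r was 0.88 and rho 0.68, with r = 0.81 without the 2 tendons farthest from the median. Over the 15 tendons at 21D r was 0.86 and rho 0.80, with r = 0.82 without the farthest 2. RT1-A1/RT1-A2, a ratio of class I heavy chain genes of the same complex that was also chosen after its values were seen, ran from 0.320 to 2.54. Against RT1-Db1/RT1-Da it had r = 0.75 and rho = 0.65 at 7D and r = 0.58 and rho = 0.69 at 21D, with r = 0.75 and 0.51 without the farthest 2. The points share library and alignment.

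RT1-Db2/RT1-Db1 had the widest fold range of the ratios given here, 0.00448 to 0.134 over the 30 tendons, but its low end was 1 tendon. In that tendon, of 21D 2 mg/kg, the RT1-Db2 count was 35, against 312 to 761 in the other 4 of the group. The next lowest ratio was 0.0369, in a tendon of 7D 2 mg/kg. The rats were outbred and the reads were aligned to a genome of another strain, and RT1 genes have near copies, so counts of single RT1 genes are uncertain between tendons. How much of the spread of the ratios comes from that was not tested.

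**Figure D4:**
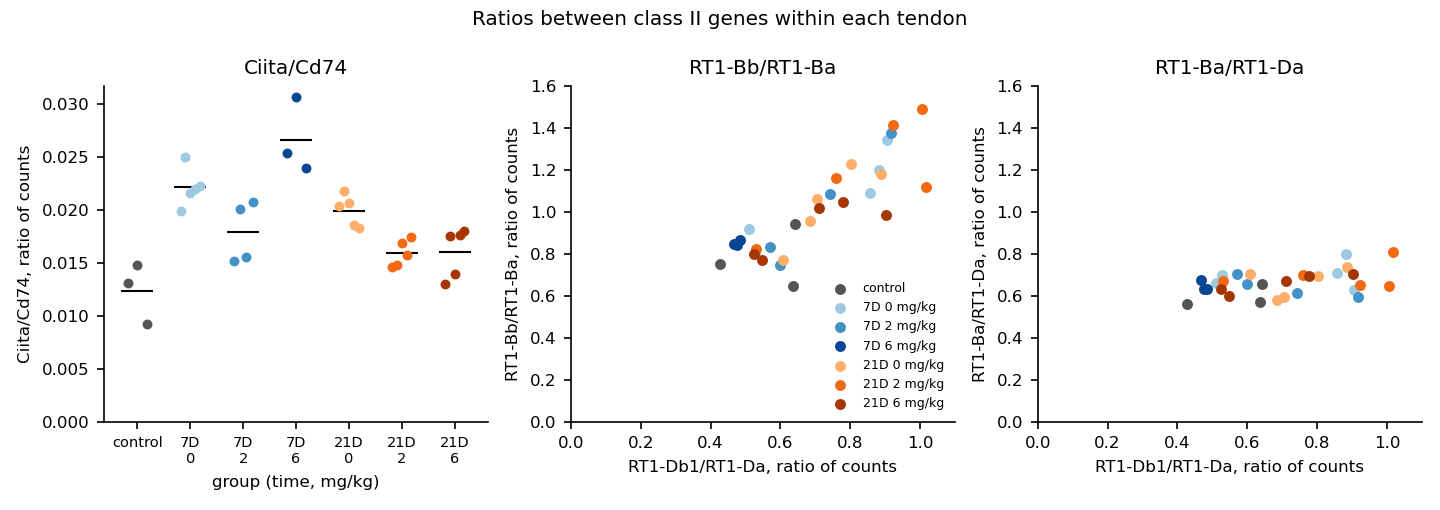
Ratios of raw counts within each of 30 tendons, not corrected for gene length. Left, Ciita/Cd74 by group with a bar at the mean, where the control tendons lie at 0.00921 to 0.0148. Middle and right, RT1-Bb/RT1-Ba and RT1-Ba/RT1-Da against RT1-Db1/RT1-Da, where the first rises along the x axis and the second stays between 0.560 and 0.808.

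Across tendons of one time point the log2 CPM of Cd74 was compared with each of the other 5 class II genes. Of these 10 correlations, 10 passed by r and 9 by rho after adjustment over all 18 tested. At 7D (12 tendons) its log2 CPM correlated with RT1-Da (r = 0.91, permutation p = 7e-05, adjusted p = 0.00021; rho = 0.90, permutation p = 0.0002) and with Ciita (r = 0.77, permutation p = 0.0041, adjusted p = 0.0074; rho = 0.73, permutation p = 0.009). Without the 2 tendons farthest from the median of Cd74, r was 0.79 and 0.63. At 21D (15 tendons) r was 0.95 with RT1-Da and 0.87 with Ciita (permutation p = 1e-05, the smallest these permutations give, and 3e-05), rho was 0.93 and 0.89 (permutation p = 1e-05 and 5e-05), and r was 0.92 and 0.86 without the farthest 2. The points share library, depth and scaling. RT1-Db1 at 7D had r = 0.64 (permutation p = 0.027, adjusted p = 0.034), which was 0.41 without the farthest 2, and its rho of 0.55 did not pass (permutation p = 0.072, adjusted p = 0.092). Of 18 correlations tested, including those with marker lists, 14 passed by r and 11 by rho after adjustment.

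The summed level of the macrophage markers gave r = 0.83 at 7D (permutation p = 0.00076, adjusted p = 0.0017; rho = 0.74, permutation p = 0.0085, adjusted p = 0.018) and r = 0.63 at 21D (permutation p = 0.012, adjusted p = 0.017; rho = 0.56, permutation p = 0.034, adjusted p = 0.051, which did not pass). Without the farthest 2 tendons r fell to 0.57 and 0.37. Leaving out the extremes of Cd74 narrows its range, which tends to lower r. How far either relation rested on those tendons therefore cannot be read from the fall. Dendritic cell markers gave r = 0.79 at 7D (permutation p = 0.0023, adjusted p = 0.0045; rho = 0.69, permutation p = 0.017, adjusted p = 0.028; 0.49 without the farthest 2) and 0.39 at 21D (permutation p = 0.15; rho = 0.30, permutation p = 0.28; 0.07 without them). B cell markers gave r = 0.23 at 7D and 0.17 at 21D (permutation p = 0.46 and 0.54; rho = 0.27 and 0.19, permutation p = 0.39 and 0.50; r = 0.12 and 0.45 without the farthest 2). The pan-leukocyte genes gave r = 0.71 at 7D (permutation p = 0.0077, adjusted p = 0.012; rho = 0.61, permutation p = 0.040, adjusted p = 0.056; r = 0.26 without the farthest 2) and 0.41 at 21D (permutation p = 0.13; rho = 0.36, permutation p = 0.18; r = 0.11 without them).

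The genes most like the class II genes were ranked by the correlation with the mean of the 6 genes over 30 tendons after each group was centred on its mean, as a description. The 30 include the 3 control tendons, which spread widely and so weigh in these r. The first 10 were Gpr160 (r = 0.87), Naaa (0.85), Clec10a (0.85), C1qa (0.85), C1qb (0.84), Itgal (0.83), C1qc (0.83), Tifa (0.83), Pltp (0.83) and Tf (0.83). C1qa, C1qb and C1qc encode the subunits of complement C1q, which macrophages make, Clec10a a lectin of macrophages and dendritic cells, and Itgal the alpha chain of the leukocyte integrin LFA-1. Each of the 6 genes was itself set against the mean of the others, with its own values left out. These r ran from 0.87 (RT1-Db1) to 0.95 (Cd74).

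The rest of the pathway is given at 7D 0 mg/kg against control, for lists chosen by role. Of 5 other class II chain genes listed, 3 were in the count table. These 3 were called higher, as were 35.8% of all genes. On the log2 scale RT1-DOa rose by 2.24 (SE 0.283) and RT1-DOb by 1.96 (SE 0.403), which form the inhibitor of DM. RT1-Db2 rose by 2.20 (SE 0.601). RT1-DOa measured 1.96, 2.12 and 2.68 CPM in control tendons and 6.52 to 14.8 CPM at 7D 0 mg/kg. At 21D 0 mg/kg all 3 were still called higher (32.2% of all genes were). None of the 3 passed across doses at either time.

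Of 10 endosomal processing genes, 7 were called higher and 1 lower, with a median log2 fold change of 1.13 (of all genes, 35.8% were called higher and 35.6% lower). Lgmn, a lysosomal endopeptidase that cuts antigens and the invariant chain, rose by 2.62 (SE 0.320, adjusted p = 1.06e-07), Ifi30, a thiol reductase that unfolds antigens, by 1.94 (SE 0.304), and Ctsb and Ctsl, cysteine proteases, by 1.89 and 1.36. Ctss, the protease that trims the invariant chain to its last fragment, had a log2 fold change of 0.88 (SE 0.457, adjusted p = 0.086) and did not pass. Cst3, an inhibitor of these cathepsins, fell by 0.83 (SE 0.243, adjusted p = 0.0039). Both genes of surface turnover that were kept rose, Cd83 by 1.57 and March8, a ubiquitin ligase that removes class II and other proteins from the surface, by 0.50.

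Of 7 genes for the proteins on which Ciita docks, 2 were called higher and 3 lower, shares near those of all genes (35.8% and 35.6%), with a median log2 fold change of -0.18. Nfya, an NF-Y subunit, rose by 0.86 (SE 0.0965) and Rfx5 by 0.45 (SE 0.0938), while the other two NF-Y subunits, Nfyb and Nfyc, had log2 fold changes of -0.80 (SE 0.145) and -0.79 (SE 0.106), and Rfxank -0.50 (SE 0.161). All 5 calls and their directions were also made at 21D 0 mg/kg, where Atf1 was called lower as well (33.7% of all genes were). Rfx5 measured 24.1 to 27.5 CPM in control tendons and 31.8 to 39.2 CPM at 7D 0 mg/kg.

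Of 10 genes upstream of Ciita in interferon gamma signaling or among its transcription factors, 8 were called higher and none lower. The shares of all genes were 35.8% and 35.6%. Irf8, a factor of myeloid and B cells, rose by 3.83 (SE 0.425), Socs1, a feedback inhibitor of JAK kinases, by 3.14 (SE 0.339), Spi1 (PU.1) by 2.29 (SE 0.512) and Irf1, which interferon gamma induces and which acts on Ciita, by 1.30 (SE 0.320). Irf2 had a log2 fold change of 0.00 (SE 0.152). Between 7D and 21D at 6 mg/kg, where 4.55% of all genes were called lower, most members of these lists did not pass. Of the 10 genes upstream of Ciita 2 were called lower, Irf8 with a log2 fold change of -1.68 (SE 0.342, adjusted p = 0.0023) and the kinase Jak2 with -0.58 (SE 0.190, adjusted p = 0.042). Of the 10 endosomal processing genes 3 were, Ctsc (adjusted p = 0.029), Lgmn at -0.94 and Ifi30 at -0.88. RT1-DOb was the 1 of 3 other class II chains (-1.12, SE 0.353, adjusted p = 0.036) and Cd40 the 1 of 4 costimulatory genes (-0.99, SE 0.304, adjusted p = 0.032), while none of the 7 genes for the proteins on which Ciita docks was called.

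On the side of the T cell contact, 3 of 4 costimulatory genes were called higher, with Cd40 at 1.58 (SE 0.335), Cd80 at 1.47 and Cd86 at 1.25, and Cd274 at 0.75 (adjusted p = 0.081). All 6 genes of the CD4 T cell list were called higher, from 1.37 for Cd4, which macrophages of the rat also carry, to 4.43 for the T cell receptor component Cd3d. Class I presentation also moved: 21 of 26 genes were called higher and none lower, and Nlrc5, the class I counterpart of Ciita, rose by 2.23 (SE 0.529). The lowest class I gene was RT1-CE3 at -0.04 (SE 1.17). Beside the counts of these 3 lists, 35.8% of all genes were called higher and 35.6% lower.

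Markers of the cells that carry class II rose alongside. At 7D 0 mg/kg, where 35.8% of all genes were called higher, 9 of 12 macrophage markers were (from C1qb at 0.63, not called, to Cd68 at 3.27). So were 8 of 9 dendritic cell markers (from Zbtb46 at 0.36, not called, to Ccl22 at 6.47) and 7 of 8 B cell markers. The B cell marker Ms4a1 had 0 counts in all 3 control tendons, and the lowest B cell marker was Fcer2 at 2.01 (adjusted p = 0.095). The summed macrophage list ran from 504 to 2193 CPM in control tendons and from 2508 to 5886 CPM at 7D 0 mg/kg, the dendritic cell list from 31.3 to 118 and from 183 to 384 CPM, and the B cell list from 0.816 to 5.85 and from 11.9 to 44.4 CPM. The 3 pan-leukocyte genes rose, from Laptm5 at 2.25 to Coro1a at 2.93. At 21D with 0, 2 and 6 mg/kg, 7, 7 and 5 of 12 macrophage markers were called higher. Of 9 dendritic cell markers 7, 4 and 7 were, and of 8 B cell markers 6, 3 and 3. All 3 pan-leukocyte genes and all 6 class II genes were called in each of these groups, against 32.2%, 33.8% and 30.8% of all genes. The part of these cells in the rise of the class II genes was not tested.

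**Figure D5:**
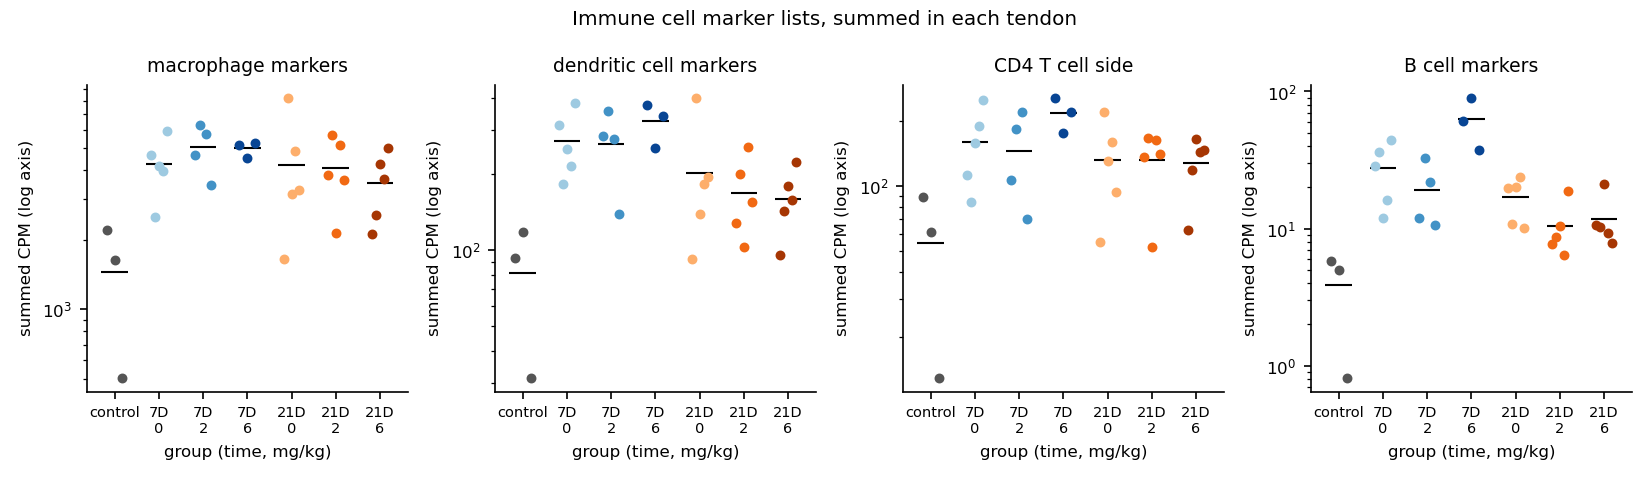
Summed CPM of 4 marker lists in 30 tendons on log axes, with the 7 groups on the x axis, 1 point per tendon and a bar at the mean. The macrophage sums are 504 to 2193 CPM in control tendons and 2508 to 5886 CPM at 7D 0 mg/kg, and the B cell sums of 7D 6 mg/kg lie at 37.4 to 88.9 CPM.

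The neutrophil list, cells that carry little class II, had 4 of 5 markers called higher, from Cxcr2 at 1.29 (not called) to S100a8 at 3.34. The endothelial list had 3 of 6 called higher, from Emcn at -0.06 (not called) to Vwf at 1.25. The tendon fibroblast list had 1 of 7 called higher (Col1a1, 1.14) and 3 called lower, with Mkx at -4.10. Since 35.8% of all genes were called higher and 35.6% lower, the endothelial and tendon fibroblast counts do not stand apart from the background. All 25 skeletal muscle markers were called lower, from Pvalb at -6.29 to Des at -4.07.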

How the data were processed

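RNA from the right plantaris tendon, cut to avoid muscle and bone, was sequenced as single reads, and 30 libraries were analysed here. The authors trimmed reads with fastp, aligned them with STAR to the rat genome rn6 and deposited whole-number counts of reads over exons of the Ensembl annotation. Per the paper's methods, samples were also left out by the authors for quality. Whether reads were counted by strand is not given in the sources used here. A deposited table of the authors' comparisons (log2 fold changes, p-values and the genomic width of each gene) was used for nothing but the chromosome of each gene. Exon lengths were not used here, and levels of different genes are not compared.

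The filter kept 12558 of 13124 genes, those whose mean reached 3 CPM in any group. One edgeR (version 4.0.16, R 4.3.3) quasi-likelihood fit with TMM scaling held all 7 groups, each contrast was tested with Benjamini-Hochberg adjustment over all genes kept, and genes at an adjusted p under 0.05 were called. CPM are scaled by TMM, and log2 CPM use a prior count of 2. Ratios were compared by exact permutation tests and correlations by 100000 permutations (scipy 1.17.1). DESeq2 (version 1.42.0) and the other alternatives are given at the end.

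The genes and lists were chosen with earlier results of these data known. Named besides the 6 genes are the highest and lowest gene of each list at 7D 0 mg/kg, genes of the pathway lists, and the 10 most like the 6. RT1-A1, RT1-A2 and Cd79b were named after their values were seen. Groups were taken from the sample labels. Each tendon is 1 rat, and no pair of tendons within a group agreed within sampling noise.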

Additional observations from a re-analysis of the deposited data

Results flagged for a closer look

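In each group of 4 or 5 tendons the highest and lowest value of every class II gene and ratio was set against the rest by Dixon's criterion, which chance passes in about 1 of 20 groups. Of 60 such groups, 2 held an outlying value. RT1-Db1 measured 417 CPM in tendon 4 of 7D 2 mg/kg, against 193, 197 and 227 CPM in the other 3. RT1-Ba measured 319 CPM in tendon 1 of 21D 2 mg/kg, against 172 to 195 CPM in the other 4. RT1-Db1, RT1-Bb, RT1-Da and Cd74 were also highest in these same tendons of their groups. Without tendon 4 of 7D 2 mg/kg the log2 fold change of RT1-Db1 against control was 1.57 (adjusted p = 0.0013), and without tendon 1 of 21D 2 mg/kg that of RT1-Ba was 1.32 (adjusted p = 0.00096).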

How the results depend on the processing

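All 36 differences from control kept their direction and their call under 7 other settings (252 values, log2 fold change 1.27 to 3.52) and when each tendon was left out in turn (270 values, 0.95 to 3.50, highest adjusted p 0.025). Without control tendon 3 the fold change of RT1-Bb, taken out of log2, moved by over 1.5 times in all 6 groups. At 7D 0 mg/kg its log2 fold change went from 2.23 to 2.91. No other gene moved by over 1.5 times without any tendon. The settings were RLE factors, library size alone, the muscle list left out, no filter, a replicate block, the compared groups alone and DESeq2. Library size alone moved the median of all genes against control from 0.05 to 0.64 at 7D 0 mg/kg, and the share of calls that were higher from 50.1% to 75.6%. The 6 genes then had log2 fold changes of 1.79 (RT1-Da, 21D 0 mg/kg) to 3.52 (Ciita, 7D 6 mg/kg).

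The count of class II genes called at 21D against 7D with 6 mg/kg was 1 under all 7 settings, and 0 to 1 with tendons left out. Its gene, Ciita, had adjusted p of 0.0043 to 0.021 under the settings and 0.018 to 0.078 with tendons left out. The call was lost without tendon 1 (0.078) or 4 (0.053) of 7D or tendon 1 of 21D (0.053). Estimates near 0 changed sign without being called. RT1-Db1 at 2 mg/kg went from -0.01 to 0.016 with no filter and 0.093 with a replicate block. With tendons left out RT1-Db1 ran from -0.14 to 0.32 at 2 mg/kg and from -0.25 to 0.086 at 6 mg/kg, and RT1-Bb from -0.057 to 0.43 at 2 mg/kg.

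Over all genes, DESeq2 called 1496 against 672 at 21D against 7D with 0 mg/kg, 572 against 258 across doses at 7D, 138 against 0 at 21D and 181 against 49 for the interaction, where the replicate block gave 28, the muscle list left out 24 and the compared groups alone 31. Across doses at 21D, library size alone and the compared groups alone gave 1 each. None of these calls changed a count of the 6 genes. The replicate numbers share only a number: same-numbered tendons of different groups correlated at -0.70 to 0.68, 29 of 76 pairs were over 0.1, and 10 of 30 tendons correlated best with their own number. The replicate block left the 12 counts of class II calls as they were (6 of 6 against control in each group). No ratio, and no correlation by r, changed its call or sign with a prior count of 0.25 or with library size alone.

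The lowest depth, 12405741 counts in a tendon of 7D 6 mg/kg, leaves 3 counts at 0.242 CPM, below the lowest value of any of the 6 genes. The floors cover counting error only, and groups of 3 to 5 tendons limit the precision.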
